A study of Mus musculus with 6 samples.

Results

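The 10 Krüppel-like factor genes Klf2, Klf3, Klf5, Klf6, Klf7, Klf9, Klf10, Klf11, Klf12 and Klf13 were examined in germinal vesicle (GV) oocytes, the fully grown oocytes still arrested in meiotic prophase, of 2 mouse genotypes. They were taken by symbol from a table of 24421 genes, and all 10 were present and passed the filter on low counts. The choice was made with their counts in this comparison known, so their levels and fold changes are a description and carry no test here. Both genotypes were null for Ring1 and homozygous for a floxed Rnf2 allele, on a mixed FVB, 129/Sv and C57BL/6J background. Ring1 and Rnf2 encode the paired E3 ubiquitin ligases at the core of Polycomb repressive complex 1. The genotype called DKO (Ring1 -/-; Rnf2 f/f; Zp3-cre) also carried Zp3-cre, a Cre transgene driven by the promoter of a zona pellucida gene that is active in growing oocytes. The genotype called SKO (Ring1 -/-; Rnf2 f/f) lacked it, so effects of the transgene itself and of the Rnf2 deletion cannot be told apart. Each genotype had 3 libraries, each from 15 pooled oocytes of 1 female aged about 3 months, freed of granulosa cells by pipetting.

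Krüppel-like factors are transcription factors that bind GC-rich and CACCC sequences through zinc fingers at their C-terminal end, which are nearly alike across the family. Their N-terminal parts differ and recruit different partners: Klf3 and Klf12 bind the corepressor CtBP, Klf2, Klf5, Klf6 and Klf7 act mainly as activators, and Klf9, Klf10, Klf11 and Klf13 can bind the Sin3 corepressor. Members are known for controlling differentiation, proliferation and quiescence in blood, vessels, epithelia, fat and neurons, and several respond quickly to growth factors or stress.

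The libraries held 15521975 to 26652745 counts, and 3 counts, taken as the floor, were worth 0.116 to 0.171 CPM. CPM relates a gene's count to the size of its library after scaling by TMM (the trimmed mean of M-values) and is the unit of every level below unless stated. The level of Rnf2, the targeted gene, was 189.9 ± 11.8 CPM in SKO against 36.6 ± 17.5 CPM in DKO (SD over 3 mice, as for each mean below), and Ring1 had 19 counts in DKO and 10 in SKO. The oocyte markers summed to 12396 to 17123 CPM in DKO and 22028 to 23490 CPM in SKO. Led per length by Gdf9, Zp3 and Ooep, they were the most abundant of the 4 marker lists. Of 10 tested oocyte markers, 5 were called lower and 0 higher. The 14 granulosa and cumulus markers summed to 222 to 257 CPM in DKO and 121 to 151 CPM in SKO. Nr5a2, Cyp19a1 and Fshr led this list per length. From SKO to DKO, Fshr went from 0.506 to 30.7 CPM, Nr5a2 from 79.1 to 116.8 CPM and Cyp19a1 from 29.98 to 16.98 CPM. Of its 11 tested members, 6 were called higher, 4 were not called and 1, Cyp19a1, was called lower. The median log2 fold change of these 11 was 0.92. The calls of Cyp19a1 (lower) and Nr5a2 (higher) were each lost in 6 of 13 alternative settings, which for Cyp19a1 included limma voom. The 14 markers of theca, stroma and endothelium, led by Pecam1, Tek and Dcn, summed to 116 to 129 CPM in DKO and 118 to 158 CPM in SKO. Within that list 5 of 10 tested genes were called higher and 1 lower, with a median log2 fold change of 1.78. Over all tested genes the shares were 17.3% and 7.41%, with a median of 0.04. Of the 5 called higher, 2 would pass the filter on the SKO libraries alone. Pecam1, the most abundant, was lower in DKO (60.9 against 109 CPM), while the endothelial receptor gene Kdr went from 3.68 to 11.6 CPM and Dcn, a stromal gene, from 0.518 to 3.43 CPM. Of these, Dcn was tested through its DKO counts. The endothelial gene Cdh5 had 3 counts in DKO and none in SKO. The blood and immune markers, Cd68 among them, summed to 5.16 to 9.05 CPM and 1.31 to 3.54 CPM, with 2 haemoglobin genes listed at 0 throughout. The part of these other cell types in the Klf levels was not tested. In such pooled samples, fewer cells of a type and less RNA per cell cannot be told apart.

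Most of the 10 genes were higher in DKO oocytes, and the 5 with the lowest SKO levels had the largest fold changes. Klf12, Klf3, Klf9, Klf5 and Klf2, which lay between 0.194 and 1.27 CPM in SKO, were 9.21-fold to 209-fold higher in DKO as a ratio of means. That link is partly built in, since the SKO level is the denominator of each fold change. Among these genes, Klf2, Klf5 and Klf12 also passed the filter only with their DKO counts, so nothing is read from the link. Klf6 and Klf10, at 4.34 and 14.8 CPM in SKO, were 4.38-fold and 2.37-fold higher. Klf11 and Klf7, the most abundant in SKO at 128 and 49.7 CPM, differed by 1.42-fold and 1.25-fold, and Klf13 was at nearly equal levels. In the edgeR quasi-likelihood fit across all genes, 7 of the 10 passed an adjusted p of 0.05 as higher, where 24.7% of 14845 tested genes were called (17.3% higher and 7.41% lower), and none passed as lower, also at an unadjusted p under 0.05 or with DESeq2 or limma. Nothing is read from that count, since the same comparison was known when the genes were chosen. Its make-up also shifts: Klf10 leaves it without DKO replicate 1, SKO replicate 2 or SKO replicate 3, and Klf11 joins it without DKO replicate 3, with library totals as the only scaling or with limma voom. The count rests in part on the filter: Klf2, Klf5 and Klf12 would not pass it on the SKO libraries alone and were tested through their DKO counts. The median log2 fold change (DKO over SKO) was 2.65 over the 10 genes and 0.04 over all tested genes.

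**Figure D1:**
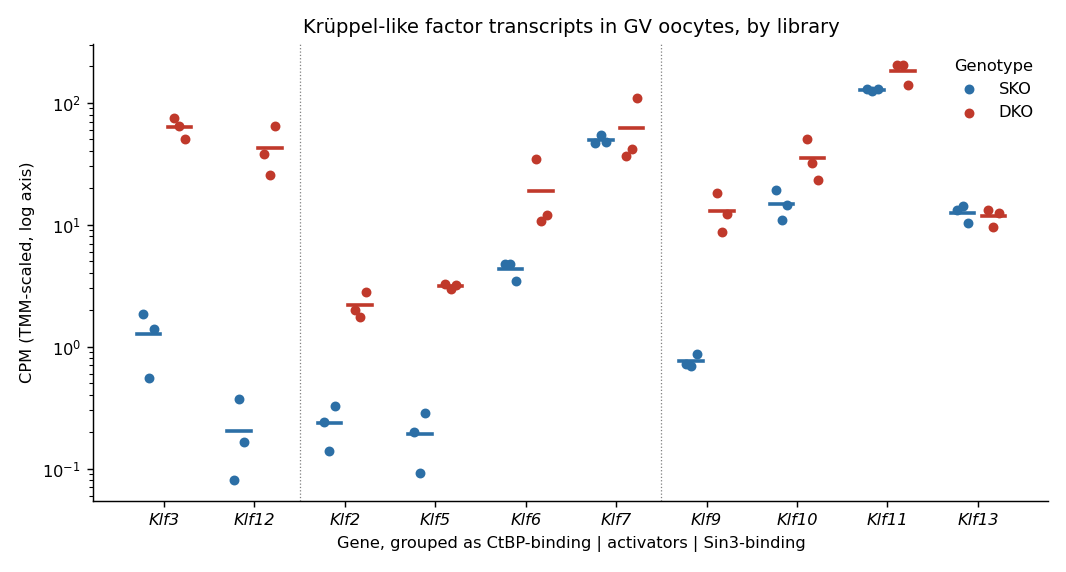
Each point is the level of a gene in 1 library, in CPM on a log axis, with SKO in blue, DKO in red and a bar at the mean of 3 libraries. The DKO points of 8 genes lie above all SKO points, while those of Klf7 and Klf13 overlap them.

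**Figure D2:**
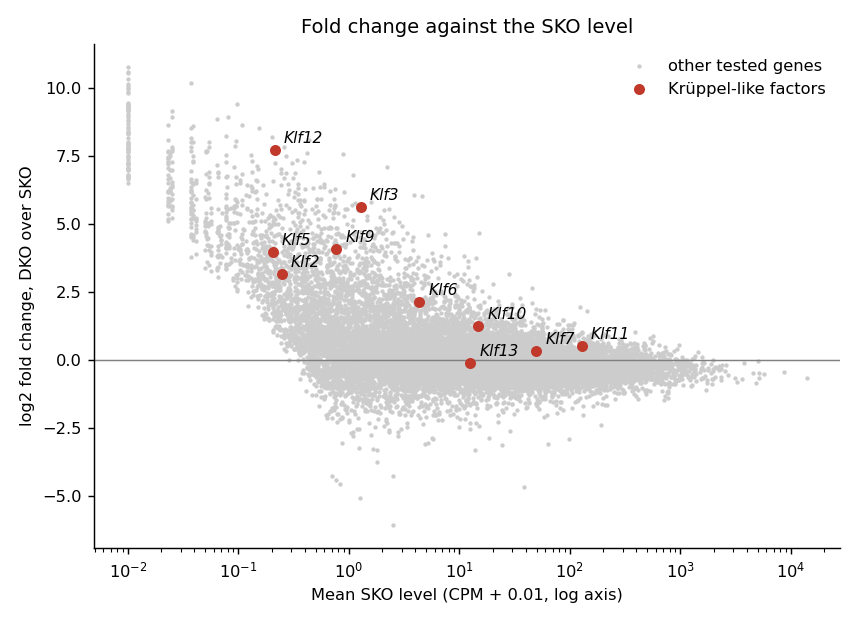
The log2 fold change (DKO over SKO) is plotted against the mean SKO level (CPM plus 0.01, log axis) for all 14845 tested genes in grey and the 10 Krüppel-like factors in red. The empty lower left corner is set by the filter, since genes near 0 CPM in SKO are tested only with counts in DKO.

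Proximal promoters were compared as a feature that the choice of genes did not use. RefSeq promoter windows on GRCm38.p6, from 250 bases before to 50 bases after a transcription start, were found for 8 of the 10 genes, and Klf5 and Klf10 had no entry. Sequence upstream of the start and outside any GENCODE exon is printed for 5 genes that span the range of SKO levels: 3 that were below 1 CPM in SKO (Klf2, Klf9 and Klf12), then the most abundant (Klf11) and the one at nearly equal levels (Klf13). Capitals mark CACCC (or GGGTG) and CCGCCC (or GGGCGG), the boxes that proteins of this family and the related Sp factors are known to bind, with overlapping matches joined.
Klf2, chr8:72318812-72319032, plus strand: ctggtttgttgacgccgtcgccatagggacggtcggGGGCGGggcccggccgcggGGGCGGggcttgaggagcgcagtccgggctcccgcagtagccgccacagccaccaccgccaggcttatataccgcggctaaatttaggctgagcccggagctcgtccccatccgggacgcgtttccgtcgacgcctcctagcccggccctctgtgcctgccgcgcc
Klf9, chr19:23140976-23141225, plus strand: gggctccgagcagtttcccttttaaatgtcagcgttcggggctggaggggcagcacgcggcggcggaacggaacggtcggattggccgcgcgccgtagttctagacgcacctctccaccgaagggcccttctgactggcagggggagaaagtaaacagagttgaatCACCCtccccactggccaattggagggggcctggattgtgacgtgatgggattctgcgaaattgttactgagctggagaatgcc
Klf12, chr14:100149797-100150046, minus strand: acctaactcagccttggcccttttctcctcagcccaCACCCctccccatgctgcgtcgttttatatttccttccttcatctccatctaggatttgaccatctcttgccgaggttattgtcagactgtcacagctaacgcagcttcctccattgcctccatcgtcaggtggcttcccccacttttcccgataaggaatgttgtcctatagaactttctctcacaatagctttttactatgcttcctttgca
Klf11, chr12:24651121-24651273, plus strand: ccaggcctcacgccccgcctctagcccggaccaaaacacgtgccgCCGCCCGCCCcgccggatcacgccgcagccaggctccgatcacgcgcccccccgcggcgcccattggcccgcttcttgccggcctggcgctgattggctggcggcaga
Klf13, chr7:63938916-63939165, minus strand: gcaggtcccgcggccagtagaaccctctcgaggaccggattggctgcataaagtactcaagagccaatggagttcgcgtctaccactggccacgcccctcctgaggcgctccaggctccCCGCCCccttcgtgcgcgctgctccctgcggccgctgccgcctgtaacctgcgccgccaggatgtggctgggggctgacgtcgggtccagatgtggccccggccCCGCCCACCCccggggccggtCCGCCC

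Of the 8 windows, 6 held CACCC on either strand and 6 held CCGCCC, 4 held both and each held at least 1 of them. Among all 32851 promoter windows of the same length in the RefSeq table, 57.5% held CACCC, 35.7% held CCGCCC and 23.8% held both. GC content was 45.7% in the Klf12 window and 58.3% to 77.7% in the other 7, against a median of 52.7% over all windows. Its part in the number of matches was not tested. Klf3 had the most matches, with 5 of CACCC and 6 of CCGCCC. Its window lay wholly within annotated exons and is not printed. The count of CpG dinucleotides per window was 42 in Klf11, 32 in Klf2 and in Klf13, 29 in Klf3, 28 in Klf9, 23 in Klf6, 16 in Klf7 and 6 in Klf12, against a median of 7 over all windows. CpG-rich windows thus belonged both to genes near silent in SKO, such as Klf2 and Klf9, and to the abundant Klf11. The Klf12 window stood apart with a CpG observed/expected ratio of 0.426, beside 0.659 to 0.962 in the other 7 and a median of 0.384 over all windows. The start that this window belongs to lies inside the RefSeq span of Klf12, and no window of another Klf12 start was available. The contrast thus describes this internal start only. A match is a description of letters and shows no binding.

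Of the 10 genes, the CtBP-binding repressors Klf12 and Klf3 had the largest fold changes. Klf8, a CtBP-binding relative outside the 10, was not called with all libraries, at a log2 fold change of 1.15. Klf12 (chr14:99866181-100285891), which represses the AP-2 alpha gene, had 2, 8 and 4 counts in SKO replicates 1 to 3 and 664, 541 and 1670 counts in DKO replicates 1 to 3. Its level was 0.0804, 0.368 and 0.164 CPM in SKO and 37.8, 25.4 and 64.8 CPM in DKO, so that DKO replicate 3 was the highest and the genotypes did not overlap. The log2 fold change was 7.71 (SE 0.55), and Klf12 was tested through its DKO counts. The SKO libraries held 14 counts in all, and the log2 fold change was 8.38 without SKO replicate 2. Klf3 (chr5:64803521-64832901), known as a repressor in blood and fat cells, measured 1.85, 0.552 and 1.40 CPM in SKO and 75.6, 64.4 and 50.02 CPM in DKO. The genotypes were far apart in each library, with 12 to 46 counts in SKO and 1289 to 1371 in DKO, and the log2 fold change was 5.63 (SE 0.40).

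The activators ranged from near silence to high abundance. Klf2 (chr8:72319062-72321654), which holds T cells and endothelium in a quiescent state, measured 0.241, 0.138 and 0.328 CPM in SKO and 1.99, 1.74 and 2.79 CPM in DKO. It had 3 to 8 counts per SKO library and 35 to 72 per DKO library, so it stayed a rare transcript in both, with a log2 fold change of 3.17 (SE 0.61). Klf5 (chr14:99298691-99313412), needed for the early embryo's trophectoderm and for gut epithelium, measured 0.201, 0.0921 and 0.287 CPM in SKO and 3.24, 2.96 and 3.18 CPM in DKO. Its DKO libraries lay closer together than those of any of the other 9 genes, the highest being 1.10 times the lowest, and its log2 fold change was 3.96 (SE 0.58). Klf5 and Klf12 are neighbours on chromosome 14, with 552768 bases and no other gene of the table between their RefSeq spans.

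Klf6 (chr13:5861489-5870393), an injury-induced factor with growth-restraining roles, measured 4.79, 4.79 and 3.45 CPM in SKO and 34.4, 10.7 and 11.9 CPM in DKO. The genotypes did not overlap, but DKO replicate 1 was 3.23 times the lowest DKO library. The log2 fold change was 2.13 (SE 0.46), and 1.38 without DKO replicate 1. Klf7 (chr1:64029448-64122345), known from neuron differentiation, measured 46.9, 54.3 and 47.8 CPM in SKO and 36.7, 41.4 and 109 CPM in DKO. DKO replicates 1 and 2 lay below every SKO library and DKO replicate 3 above them, so the log2 fold change of 0.33 (SE 0.36) rests on 1 library: it was -0.36 without DKO replicate 3 and -0.03 with limma voom. Mir6899, a microRNA gene that overlaps Klf7, gained 0.322 CPM against 12.6 for Klf7.

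Among the Sin3-binding genes, fold changes ranged from that of Klf9 to the near equality of Klf13. Klf9 (chr19:23141226-23168129), a hormone-responsive factor, measured 0.724, 0.690 and 0.862 CPM in SKO and 18.0, 8.68 and 12.3 CPM in DKO. Each DKO library was above every SKO library, and the log2 fold change was 4.09 (SE 0.40). Klf10 (chr15:38291464-38300711), an early response gene of TGF-beta signalling, measured 19.1, 10.9 and 14.5 CPM in SKO and 50.5, 32.0 and 23.0 CPM in DKO. The lowest DKO library was just above the highest SKO library, with a log2 fold change of 1.25 (SE 0.32).

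Klf11 (chr12:24651371-24662782), a second TGF-beta-inducible factor, was the most abundant of the 10 genes in both genotypes, at 130.1, 124 and 130.3 CPM in SKO and 205, 202 and 139 CPM in DKO. All DKO libraries were above all SKO libraries, with DKO replicate 3 close to them, and the log2 fold change was 0.51 (SE 0.18). Klf13 (chr7:63886351-63938915), a regulator of T cell chemokine expression and heart development, measured 13.1, 14.3 and 10.3 CPM in SKO and 13.1, 9.48 and 12.5 CPM in DKO. The genotypes overlapped, with a log2 fold change of -0.10 (SE 0.27) that was 0.05 with library totals and 0.03 without DKO replicate 2.

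DKO libraries differed from each other by gene. Of the 10 genes, 7 had their highest DKO level in replicate 1 (Klf3, Klf5, Klf6, Klf9, Klf10, Klf11 and Klf13) and 3 in replicate 3 (Klf2, Klf7 and Klf12). DKO replicate 1 had the fewest counts of the 6 libraries, and its part in these levels was not tested. Over all tested genes, 24.7% had each DKO library above each SKO library and 19.6% had each below. Here 8 of the 10 were above, and nothing is read from that count either.

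Levels of different genes were compared per length (CPM per kilobase of the deposited gene length). The 10 genes summed to 67.8 ± 0.904 CPM per kilobase in SKO and to 124, 108 and 134 CPM per kilobase in DKO replicates 1 to 3 (122 ± 13.3, SD, n = 3). In SKO the order was Klf11 at 32.2, Klf7 at 28.1, Klf10 at 3.88, Klf13 at 1.90 and Klf6 at 1.03 CPM per kilobase, each with a range apart from the next. Klf3, Klf9, Klf2, Klf5 and Klf12 followed, from 0.246 down to 0.0356 CPM per kilobase, and the ranges of Klf3 and Klf9, of Klf2 and Klf5, and of Klf5 and Klf12 overlapped. In DKO the order was Klf11 at 45.7, Klf7 at 35.2, Klf3 at 12.3, Klf10 at 9.22, Klf12 at 7.43, Klf6 at 4.51 and Klf9 at 3.98 CPM per kilobase. Neighbours in that order overlapped, except that Klf7 was separate from Klf3. Klf13 at 1.77, Klf2 at 1.20 and Klf5 at 0.873 CPM per kilobase came last, with Klf9 separate from Klf13 and Klf2 from Klf5.

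The make-up of this pool was read as the share of each gene. Klf11 and Klf7 held 47.5 ± 1.86% and 41.4 ± 3.07% of it in SKO, and 38.1 ± 10.9% and 28.0 ± 15.6% in DKO. The share of Klf3 was 0.364 ± 0.189% in SKO and 10.2 ± 2.58% in DKO, and that of Klf12 was 0.0524 ± 0.0375% and 5.93 ± 2.22%. Of the difference in the summed level, Klf11 accounted for 24.9% and Klf3 for 22.1%, although their fold changes differed widely. Klf11 was not called, and its part varied between DKO libraries. Its lowest, replicate 3, was at 34.8 CPM per kilobase, beside a SKO mean of 32.2. Klf12 accounted for 13.6%, Klf7 for 13.1%, Klf10 for 9.81%, Klf9 for 6.89% and Klf6 for 6.39%. The part of Klf7 rests on DKO replicate 3: without it Klf7 accounted for -12.5%, Klf11 for 39.2% and Klf3 for 27.6%, an alternative chosen after seeing the data. These shares depend on the deposited gene lengths: without scaling by length, the SKO share of Klf7 was 23.4% and that of Klf11 60.4%.

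**Figure D3:**
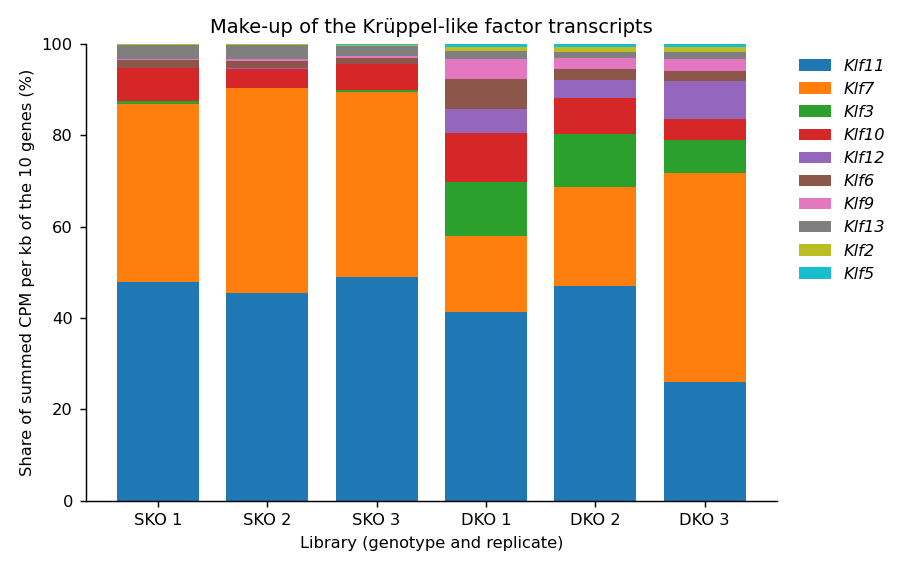
Each bar is 1 library, divided into the share of each gene in the summed CPM per kilobase of the 10 genes (percent). Klf11 (blue) and Klf7 (orange) take most of each SKO bar, and Klf3, Klf12 and Klf9 become visible in DKO, where replicate 3 has the largest Klf7 share at 45.8%.

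The other Klf genes of the table and the Sp family, whose proteins carry closely related zinc fingers, were read from the same fit. Klf17 (chr4:117756659-117765666), an oocyte and early embryo factor, was more abundant per length than any of the 10 genes, at 100.2 ± 10.3 CPM per kilobase in SKO and 53.1 ± 8.29 in DKO. It fell by 0.92 on the log2 scale (SE 0.17, edgeR quasi-likelihood test, adjusted p = 0.00378), lower in each DKO library than in any SKO library. Klf4 (chr4:55527137-55532475), a pluripotency factor, was at 10.3 ± 1.39 CPM in SKO and at 80.8 ± 12.5 CPM in DKO, a rise of 2.97 on the log2 scale (SE 0.22; edgeR adjusted p = 1.2e-05). Klf14 (chr6:30956021-30958990) had 62, 69 and 73 counts in DKO and none in SKO, which against 3 counts over the SKO group is at least 74.6-fold higher (edgeR adjusted p = 0.00031). It entered the test only through its DKO counts, so nothing beyond the counts is read from that p. Klf8, the remaining CtBP-binding relative of Klf3 and Klf12, was 1.15 higher on the log2 scale but not called (SE 0.52; edgeR adjusted p = 0.136), with DKO at 3.82 ± 2.21 CPM and SKO at 1.71 ± 0.13 CPM. DKO replicate 3, at 1.55 CPM, lay below every SKO library, and without it Klf8 was called higher (edgeR adjusted p = 0.0235). Klf16 and Klf15 were not called either, at log2 fold changes of -0.43 and 1.47, and Klf1 was below the filter.

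Of 7 tested Sp genes, 2 rose, both near silent in SKO. Sp9, a limb and forebrain factor, was at 0.315 ± 0.286 CPM in SKO and at 14.8 ± 4.79 CPM in DKO (log2 fold change 5.50, SE 0.62; edgeR adjusted p = 0.00018), and its log2 fold change was 6.39 without SKO replicate 3. Sp5, a Wnt target gene, had 36 counts in DKO and none in SKO, a rise of at least 13.2-fold (edgeR adjusted p = 0.0082). The widely expressed Sp1 and Sp3, at 164 ± 31.1 and 57.4 ± 9.05 CPM in SKO, had log2 fold changes of 0.05 (SE 0.18) and 0.18 (SE 0.26) and were not called. Sp2, Sp4 and Sp6 were not called, at log2 fold changes of -0.63, 0.66 and 1.50, and Sp7 and Sp8 were below the filter. Together, 4 of the 13 tested relatives rose and 1 fell, against 17.3% and 7.41% of all tested genes. Klf14, Sp5 and Sp9 were tested through their DKO counts.

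**Figure D4:**
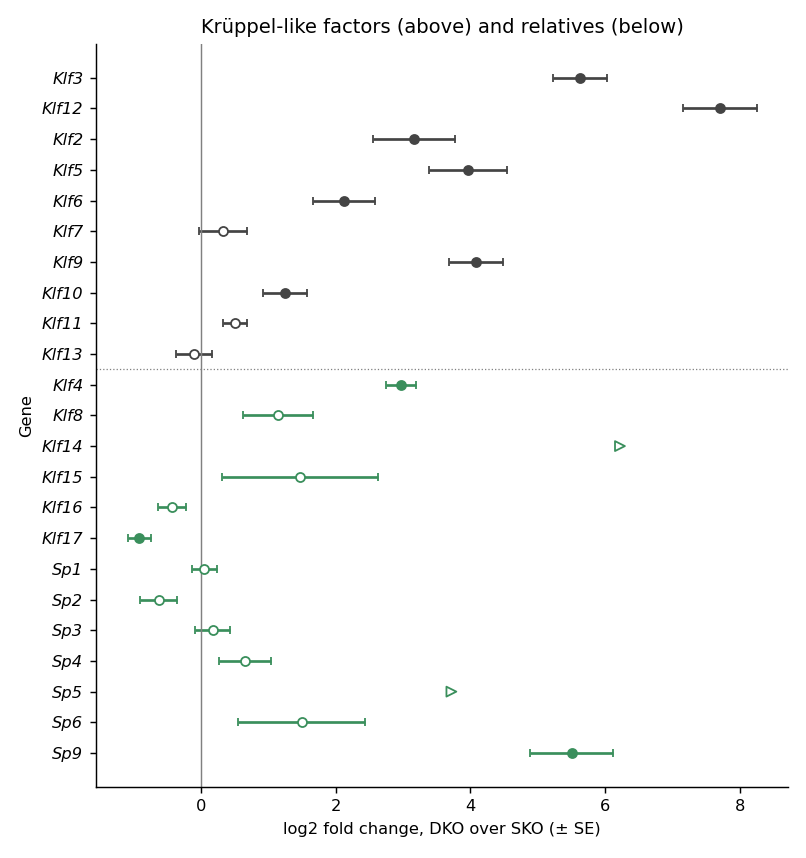
Points give the log2 fold change (DKO over SKO) with its standard error for the 10 Krüppel-like factors in dark grey and their tested relatives in green, filled where the adjusted p was under 0.05. Open triangles are lower bounds for Klf14 and Sp5, which had no SKO counts. Klf17 is the one filled point to the left of 0.

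Genes of proteins known to act with Krüppel-like factors came next. Counts here and in the lists that follow stand beside 17.3% of all tested genes called higher, 7.41% called lower and a median log2 fold change of 0.04. These lists were chosen with earlier results of these data known, so the counts are descriptions. Of 12 cofactor genes, 2 rose and 2 fell, with a median log2 fold change of -0.05, a share of rises near that of all genes. Ctbp2, a corepressor that Klf3, Klf8 and Klf12 bind, fell from 108 ± 7.36 to 60.6 ± 8.40 CPM (log2 fold change of -0.84 with SE 0.17; edgeR adjusted p = 0.00616). Fhl3, a LIM-domain partner described for Klf3, rose from 0.219 ± 0.183 to 7.35 ± 1.87 CPM (5.01, SE 0.62, adjusted p = 0.000325, edgeR, and 5.78 without SKO replicate 3), and was tested through its DKO counts. The acetyltransferase gene Kat2b rose by 2.08 (SE 0.55), a call lost without DKO replicate 2, SKO replicate 2 or SKO replicate 3 (adjusted p up to 0.0841, edgeR). Of 6 ubiquitin ligase genes, 1 rose: Wwp1, whose product acts on Klf2 and Klf5, went from 28.6 ± 0.799 to 49.3 ± 4.56 CPM (0.79, SE 0.18), a call lost without any one of the SKO replicates (adjusted p up to 0.067, edgeR).

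Pathways known to act upstream were read in the same way. Of 8 genes of the ERK5 to MEF2 route, which drives Klf2 in endothelium, 2 rose and the median log2 fold change was 0.63. None was called lower, but 1 was with DESeq2. Mef2b went from 8.75 ± 6.53 to 2.23 ± 1.50 CPM (-1.98, SE 0.69), with each DKO library below every SKO library. Mef2d went from 104 ± 13.5 to 192 ± 45.8 CPM (0.89, SE 0.21), a call lost without SKO replicate 1 or 3 (adjusted p up to 0.0672, edgeR). Mef2c rose from 0.289 ± 0.154 to 2.94 ± 1.82 CPM (3.34, SE 0.67, and 2.71 without DKO replicate 3), and it too passed the filter only through its DKO counts. Of 8 tested TGF-beta pathway genes, 2 rose and 2 fell, with a median of -0.06. The ligand genes Tgfb2 and Tgfb3 fell by 0.96 and 0.90 on the log2 scale (SE 0.16 and 0.23), and the call of Tgfb3 was lost without SKO replicate 3 and with library totals (adjusted p up to 0.078, edgeR). Smad7, the inhibitory Smad that this pathway induces, rose from 0.419 ± 0.243 to 15.1 ± 9.999 CPM (5.14, SE 0.67, adjusted p = 0.000433, edgeR), with the same dependence on its DKO counts. The receptor gene Tgfbr1, the other gene called higher, went from 53.8 ± 8.29 to 96.1 ± 28.4 CPM (0.84, SE 0.23, adjusted p = 0.0255, edgeR).

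Of 12 genes described as Krüppel-like factor targets in other tissues, 7 were tested and 2 rose, with a median log2 fold change of 0.53. Pdgfa, a growth factor gene, rose from 2.79 ± 0.949 to 9.92 ± 1.16 CPM (1.83, SE 0.36, adjusted p = 0.00463, edgeR). Cdkn1a, a cell cycle inhibitor gene, rose by 1.14 (SE 0.32), a call lost without DKO replicate 2, SKO replicate 1 or SKO replicate 2 (adjusted p up to 0.109, edgeR). The endothelial Klf2 target genes S1pr1 and Thbd had at most 1 count in any library and were untested. Nos3, another gene of this list, had 73 counts in DKO and 96 in SKO. It was tested and not called, at a log2 fold change of -0.28 (SE 0.54).

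Immediate-early genes, which cells switch on within minutes of a stimulus and among which Klf2, Klf6 and Klf10 are often counted, were read last. Of 13 tested, 9 rose and the median log2 fold change was 1.56, beside 17.3% and 0.04 over all tested genes, while 4 of the 17 listed were below the filter. Of the 9, 5 would pass the filter on the SKO libraries alone. Since the list was chosen with earlier results of these data known, nothing is read from this count. The list summed to 202 to 262 CPM in SKO and 405 to 491 CPM in DKO. Fosl2 rose from 4.73 ± 3.40 to 33.1 ± 11.3 CPM (2.81, SE 0.48, adjusted p = 0.00213, edgeR, and 3.57 without SKO replicate 2). Zfp36, which encodes an mRNA decay factor, rose from 9.48 ± 2.27 to 25.9 ± 4.67 CPM (1.45, SE 0.27, adjusted p = 0.00343, edgeR). Fos had 9 SKO counts in all, was tested through its DKO counts and rose by 4.62 (SE 0.83, and 5.50 without SKO replicate 1). The part of these genes, or of a response to handling, in the Klf levels was not tested.

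**Figure D5:**
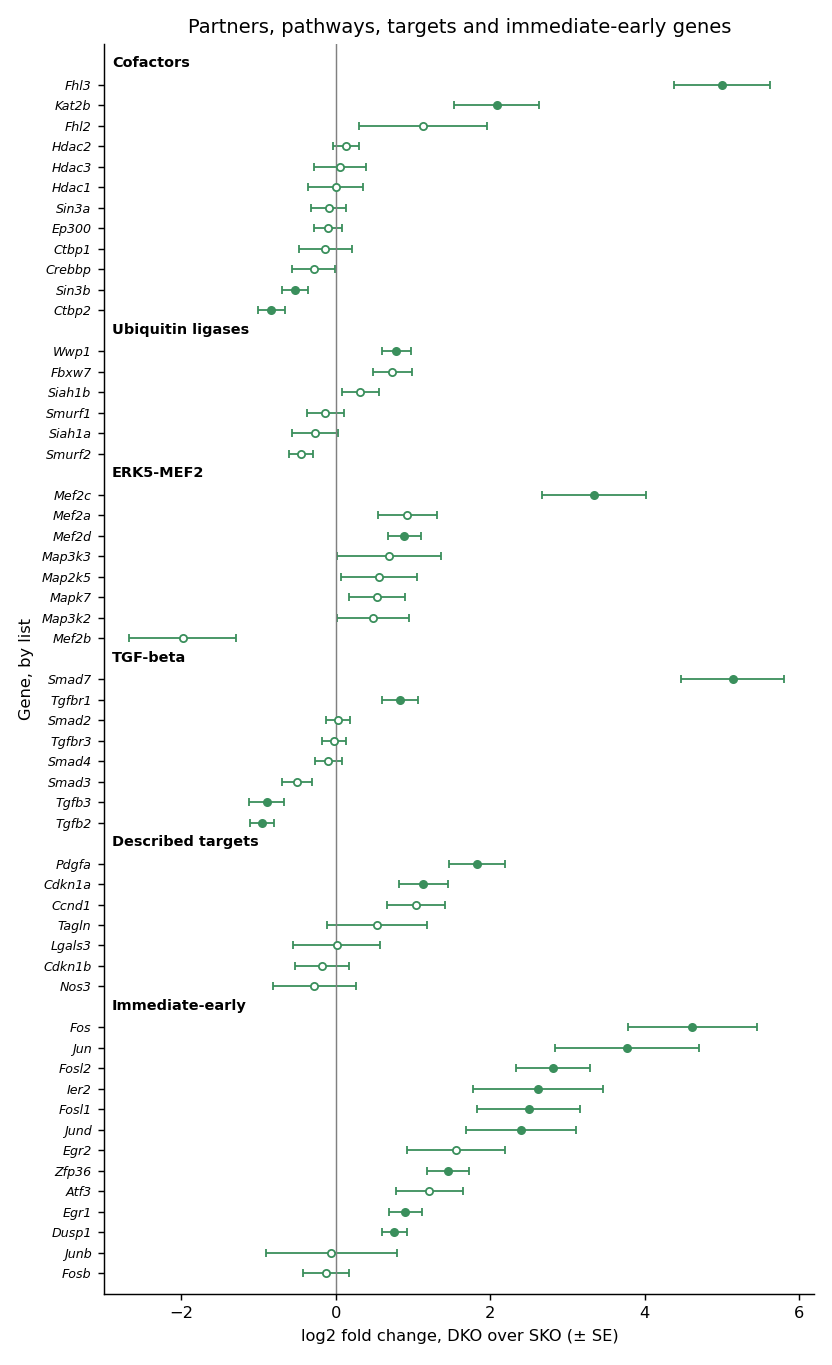
Each point is the log2 fold change (DKO over SKO) of a gene with its standard error, grouped by list and filled where the adjusted p was under 0.05. The immediate-early list has 9 filled points, all to the right of 0, while the cofactor and TGF-beta lists have filled points on both sides.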

How the data were processed

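RNA-seq gene expression was measured in 3 DKO and 3 SKO libraries, grouped by their titles. The authors deposited raw read counts per Entrez gene with a gene length in bases. Per the labels' protocols, RNA was amplified with the Ovation kit, so reads are not independent molecules. The submitters' processing notes name STAR 2.5.0a, GRCm38 and mm10, and the sources used here do not give the counter, annotation, strand or multi-mapping rules. Of 24421 identifiers, 24387 matched RefSeq (GRCm38.p6), and the others held at most 0.087% of any library. Columns matched the titles, with 0 sample columns left unused.

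R 4.3.3 with edgeR 4.0.16 was used: filterByExpr defaults (minimum count 10, minimum total 15) kept 14845 genes, followed by TMM, the two-sided quasi-likelihood test and Benjamini-Hochberg adjustment over all of them. A gene was called at an adjusted p under 0.05. Standard errors come from the F statistic. The code was tested on simulated counts. Alternatives used DESeq2 1.42.0, limma 3.58.1, other scalings and filters, a replicate block and leaving out each library. Members and lists were chosen with earlier results of these data known. Named genes are the members, Rnf2, Ring1, the other Klf and Sp genes, up to 3 called genes of each list by adjusted p and the 3 most abundant tested markers per length. One marker gene that this rule takes is not reported here. S1pr1, Thbd, Nos3, Cdh5, Kdr, Tgfbr1 and Mef2b were named after their values were seen. Protein sequences and the promoters of Klf5 and Klf10 were not used here. Intervals are not given for single shares, and floors cover counting error only.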

Additional observations from a re-analysis of the deposited data

How the results depend on the processing

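Of 130 values of the 10 Krüppel-like factors under alternatives, 124 kept their side of the threshold, and the 6 others belong to Klf10 and Klf11. The number called higher was 7 in the main setting and 6 to 8 without single libraries, 8 with library totals or limma voom, and 7 under the other alternatives. Log2 fold changes of Klf7 and Klf13, which were not called, changed sign under some alternatives. Over all genes, 2567 rose and 1100 fell, and falls numbered 596 with library totals, which shifted the median log2 fold change over all genes from 0.04 to 0.20 and the share of rises among calls from 70.0% to 82.9%. Leaving out single libraries gave 434 to 1501 falls. Among partner, pathway, target and immediate-early genes, 18 rose and 4 fell. Without single libraries 10 to 19 rose (10 without SKO replicate 1) and 3 to 7 fell (7 without DKO replicate 3), and 2 fell with library totals. Without scaling by length, the share of Klf3 in DKO was 14.6%, that of Klf7 in SKO 23.4% and that of Klf11 in SKO 60.4%. Of the difference in the summed level, Klf7 accounted for -12.5% (without DKO replicate 3) to 26.9% and Klf13 for -0.558% to 0.0630% without single libraries, alternatives chosen after seeing the data. The causes of these shifts were not tested. Same-numbered DKO and SKO libraries correlated at 0.139, 0.0773 and 0.0479 in their deviations from the group means, each highest with its own number, but the labels give no pairing. With the replicate number as a block, 2651 genes rose and 1364 fell, and none of the 10 Krüppel-like factors changed its call. Depth limits Klf2, Klf5 and Klf12 in SKO, where each library had at most 8 counts.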
